A study of Homo sapiens with 10 samples.

Results

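The catalytic subunits of the proteasome were compared across bortezomib-resistant (BR) and PT cells of HBL2 and JEKO, both lines of mantle cell lymphoma, a B cell cancer. The 6 genes were the constitutive subunits PSMB5, PSMB6 and PSMB7 and the inducible subunits PSMB8, PSMB9 and PSMB10, out of 14529 genes tested. Each gene was represented by the probe set that named it and no other gene and had the highest mean score, and all 6 passed the filter on dim probe sets. RNA was measured on 10 Affymetrix arrays, of which 3 held HBL2 BR cells, 3 HBL2 PT cells, 2 JEKO BR cells and 2 JEKO PT cells. The labels describe the BR cells as resistant after exposure to bortezomib and give only the letters PT for the matched cells of each line, which are taken as parental from knowledge of the study. The study set out to relate bortezomib resistance to plasmacytic features. All groups were cultured tumour cells in logarithmic growth, each line stands for 1 patient's tumour, and the labels give no dose or time of drug exposure and do not say whether drug was present at harvest. Nor do they say that replicates came from separate cultures, and p-values therefore measure the spread among these samples only. That spread may be technical, and precision is limited by the small number of arrays.

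The proteasome is the barrel-shaped protease that degrades ubiquitin-tagged proteins, and 3 of its subunits carry the cutting sites. PSMB5 has the chymotrypsin-like activity that bortezomib mainly blocks, PSMB6 the caspase-like activity and PSMB7 the trypsin-like activity. Interferon-gamma induces replacements for each, PSMB8 for PSMB5, PSMB9 for PSMB6 and PSMB10 for PSMB7, and particles built with them are called immunoproteasomes. Immunoproteasomes are abundant in lymphoid cells and shape the peptides shown on MHC class I molecules, and bortezomib also binds the inducible subunits.

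The start regions of the inducible genes are shown because the results below set these genes beside TAP1, a peptide transporter gene that lies between PSMB8 and PSMB9, and beside regulators of interferon-responsive genes. Each window holds 250 bases before and 50 bases after a start annotated by RefSeq (GRCh38.p14), read 5′ to 3′ on the strand of the gene. Capitals mark matches to an interferon-stimulated response element core (GAAA, 2 bases of any kind, then GAAA), a gamma interferon activated site (TTCNNNGAA), an antioxidant response element core (TGACNNNGC) or the NF-kB consensus, searched on both strands. PSMB8 (chr6:32843998-32844297, minus strand, the downstream of 2 annotated starts), PSMB9 (chr6:32853942-32854241, plus strand), PSMB10 (chr16:67936801-67937100, minus strand) and TAP1 (chr6:32853655-32853954, minus strand, the upstream of 2 annotated starts) read as follows.
PSMB8: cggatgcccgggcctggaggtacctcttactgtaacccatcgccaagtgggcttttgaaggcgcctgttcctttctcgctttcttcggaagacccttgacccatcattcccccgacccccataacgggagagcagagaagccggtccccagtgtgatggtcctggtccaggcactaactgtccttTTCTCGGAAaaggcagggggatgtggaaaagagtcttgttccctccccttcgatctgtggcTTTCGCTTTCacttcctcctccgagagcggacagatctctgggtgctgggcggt
PSMB9: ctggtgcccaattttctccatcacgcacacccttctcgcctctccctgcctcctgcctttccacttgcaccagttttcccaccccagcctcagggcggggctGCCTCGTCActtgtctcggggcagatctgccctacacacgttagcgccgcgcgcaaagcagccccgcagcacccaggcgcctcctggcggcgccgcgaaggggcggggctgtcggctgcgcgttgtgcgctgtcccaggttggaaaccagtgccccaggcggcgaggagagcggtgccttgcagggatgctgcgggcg
PSMB10: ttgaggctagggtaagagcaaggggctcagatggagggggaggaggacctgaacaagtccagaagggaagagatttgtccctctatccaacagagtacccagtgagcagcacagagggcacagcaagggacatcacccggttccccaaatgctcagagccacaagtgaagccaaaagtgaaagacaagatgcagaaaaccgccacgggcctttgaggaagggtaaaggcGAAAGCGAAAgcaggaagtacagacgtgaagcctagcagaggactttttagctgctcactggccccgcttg
TAP1: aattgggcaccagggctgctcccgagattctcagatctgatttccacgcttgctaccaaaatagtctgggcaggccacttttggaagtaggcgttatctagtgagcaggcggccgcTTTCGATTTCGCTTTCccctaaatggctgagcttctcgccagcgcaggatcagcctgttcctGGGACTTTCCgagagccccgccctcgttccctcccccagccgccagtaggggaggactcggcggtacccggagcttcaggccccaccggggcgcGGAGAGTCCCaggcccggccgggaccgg

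The PSMB8 window held TTTCGCTTTC, an interferon-stimulated response element core on the other strand, at bases -4 to 6 from the start, and the gamma interferon activated site TTCTCGGAA at bases -65 to -57. The PSMB10 window held the same element core, GAAAGCGAAA, at bases -21 to -12. The PSMB9 window held no match to it and had 1 antioxidant response element core, GCCTCGTCA. The TAP1 start shown lies 488 bases from the PSMB9 start and is read in the opposite direction, and the 2 windows share 13 bases. This TAP1 window held 2 interferon-stimulated response element cores that overlap each other, whose nearest bases lie 354 and 360 bases upstream of the PSMB9 start, and 2 NF-kB matches. The window of the downstream TAP1 start held 1 gamma interferon activated site and no other match. Of 35116 windows of this length, 3.57% held the interferon-stimulated response element core, 7.66% the gamma interferon activated site, 13.3% the antioxidant response element core and 11.3% the NF-kB consensus. Windows were available for 4 of the 6 members, PSMB5 among them, and PSMB6 and PSMB7 had none to search. Each of the 4 had a match in at least 1 window, and matches differed between the starts of a gene. The upstream windows of PSMB8 and PSMB5 held none of these motifs, and the downstream window of PSMB5 held 2 gamma interferon activated sites. Neither PSMB5 window held the interferon-stimulated response element core. PSMB5 was the only constitutive gene searched, so the windows cannot compare inducible with constitutive genes. A match describes letters and is not evidence of binding, and the PSMB10 match stands beside a gene that did not pass the test in any comparison below.

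Values are deposited scores, which run from 0 to 4.99 with a median of 0.73 on every array. They have exactly the same distribution on each array, so a score reflects the rank of a probe set and a shift of most genes together could not be seen. The scale resembles a logarithm of unstated base, so differences are given in deposited units and not as folds. The arrays measured bulk RNA, in which fewer cells of a type and less RNA per cell cannot be told apart. Correlations between replicates of a group were 0.932 to 0.958. Of 8 B cell and mantle cell lymphoma markers, 7 or 8 lay at or above the median of every array in each group. The difference between the 5′ and 3′ probe sets of actin, a sign of RNA quality, was -1.04 to -0.69 in HBL2 BR and -1.25 to -0.58 in HBL2 PT, and -1.01 to -0.76 in JEKO BR and -0.82 to -0.70 in JEKO PT, so the groups of each line overlapped. The GAPDH difference was lowest on JEKO BR array 2, at -0.64, against -0.44 to -0.17 on the other arrays.

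In HBL2, 1 of the 3 constitutive subunits rose in BR cells and 2 of the 3 inducible subunits fell. The PSMB6 score rose, PSMB8 and PSMB9 fell by a similar amount, and PSMB5, PSMB7 and PSMB10 did not pass the test. In the same comparison 11.8% of all genes passed the test, 4.91% higher and 6.86% lower in BR cells. A call means an adjusted p under 0.05 in limma with Benjamini-Hochberg adjustment over all 14529 genes, and values after ± are standard errors for differences and SDs for means. How many of all genes had groups of arrays that did not overlap was not counted, so a lack of overlap is given as description only.

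PSMB6, the caspase-like subunit, scored 2.43, 2.39 and 2.45 on the HBL2 BR arrays, against 2.11, 2.04 and 2.09 on the HBL2 PT arrays. Every BR array was above every PT array, with a gap of 0.28 between the nearest of them. The difference was 0.35 ± 0.054 (limma, adjusted p = 3.82e-04), and 5.61% of all genes had a larger absolute change. PSMB7, the trypsin-like subunit, scored 2.92, 2.95 and 2.90 in HBL2 BR and 2.71, 2.76 and 2.77 in HBL2 PT. These arrays also did not overlap, but the difference of 0.18 ± 0.056 missed the threshold (limma, adjusted p = 0.0507, 95% interval 0.059 to 0.30). It passed under 4 of 20 alternatives, among them leaving out HBL2 PT array 3 (0.19, adjusted p = 0.0461). A dimmer second PSMB7 probe set gave a difference of 0.026 (limma over all probe sets, adjusted p = 0.905).

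PSMB5, the main target of bortezomib, scored 2.45, 2.44 and 2.49 in HBL2 BR and 2.41, 2.37 and 2.38 in HBL2 PT. The BR arrays were all above the PT arrays, by as little as 0.035. The difference was 0.073 ± 0.053 (limma, adjusted p = 0.454), with a 95% interval of -0.039 to 0.18 that contains 0.

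PSMB8, which takes the place of PSMB5 in immunoproteasomes, scored 1.65, 1.63 and 1.61 in HBL2 BR, against 1.97, 1.99 and 2.05 in HBL2 PT. The BR arrays were the lowest of all 10 arrays and the PT arrays the highest. The difference was -0.37 ± 0.059 (limma, adjusted p = 4.32e-04), and 4.64% of all genes had a larger absolute change. The only PSMB8 probe set is of the class named _s_at, which can bind transcripts of more than 1 gene. PSMB9, which takes the place of PSMB6, scored 1.77, 1.83 and 1.96 in HBL2 BR and 2.20, 2.14 and 2.30 in HBL2 PT. All 3 BR arrays were below all 3 PT arrays, with a wider spread within the groups than for PSMB8. The difference was -0.36 ± 0.065 (limma, adjusted p = 0.00125).

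PSMB10, which takes the place of PSMB7, scored 2.13, 2.09 and 2.20 in HBL2 BR and 2.25, 2.05 and 2.08 in HBL2 PT. The arrays of the 2 groups were intermixed. The difference was 0.014 ± 0.063 (limma, adjusted p = 0.928, 95% interval -0.12 to 0.15), so the interval leaves out changes as large as those of PSMB8 and PSMB9.

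**Figure D1:**
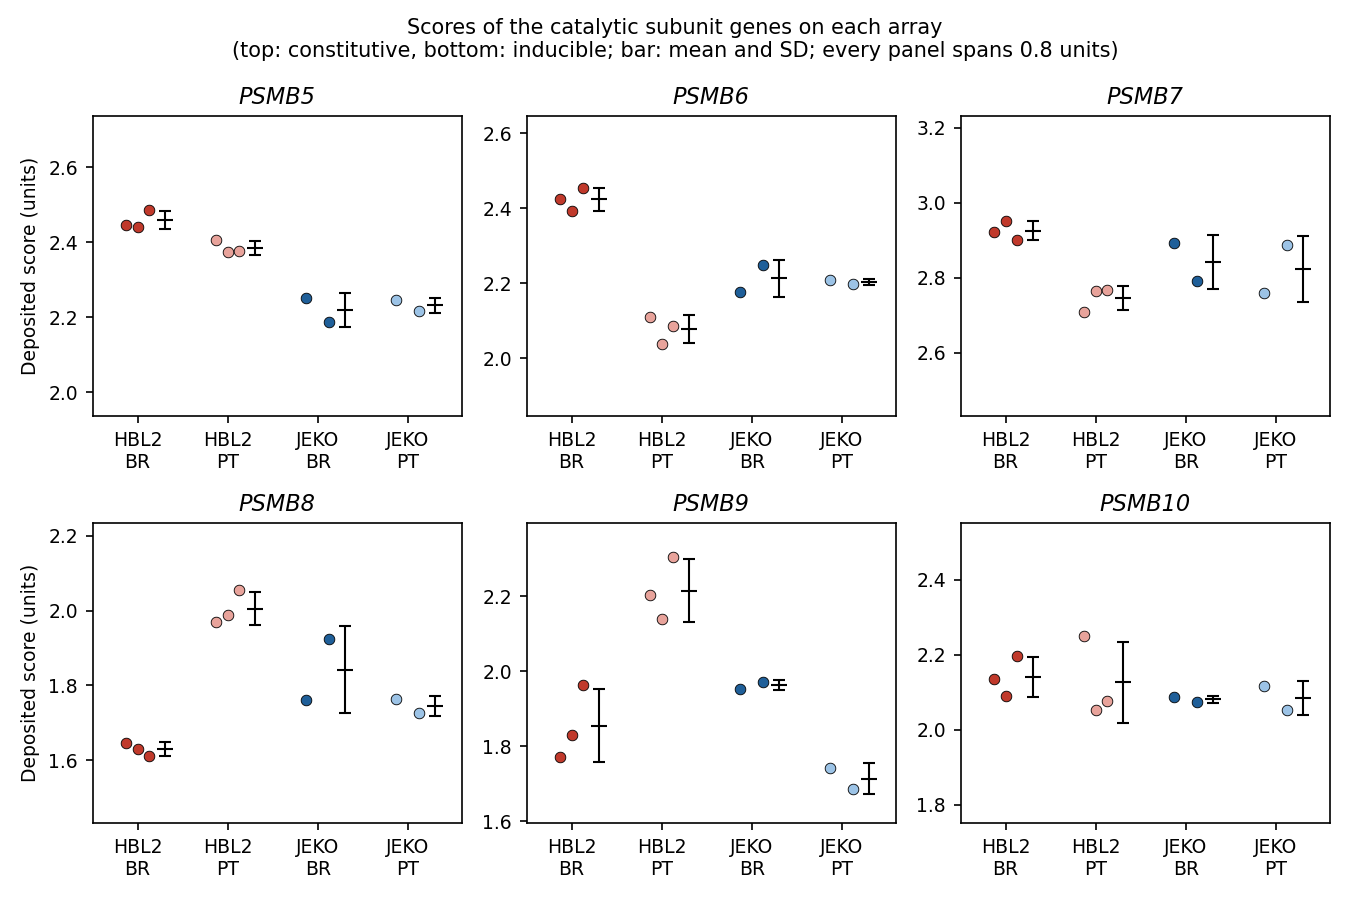
Deposited scores (vertical axis, deposited units, each panel spanning the same height) of the 6 genes on each of 10 arrays, with points for arrays and a bar for the mean and SD of each group. In HBL2 the 3 BR arrays of PSMB6 lie at 2.39 or above and those of PSMB8 at 1.65 or below, apart from the PT arrays, while the groups of PSMB10 overlap.

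In JEKO none of the 6 genes passed the test, where 4.28% of all genes did, 2.56% higher and 1.72% lower in BR cells. PSMB9 scored 1.95 and 1.97 in JEKO BR, against 1.74 and 1.68 in JEKO PT. Both BR arrays were above both PT arrays, the opposite of the order in HBL2. The difference of 0.25 ± 0.079 had a 95% interval of 0.082 to 0.42 and missed the threshold (limma, adjusted p = 0.0922). It passed under 4 of 20 alternatives, including a fit of the JEKO arrays alone (adjusted p = 0.0390) and a fit without HBL2 PT array 3 (adjusted p = 0.0465), in which its size stayed at 0.25.

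PSMB8 scored 1.76 and 1.92 in JEKO BR and 1.76 and 1.73 in JEKO PT. The BR arrays differed from each other by more than the groups did, and the second, which was higher, was the one with the low GAPDH value. The difference was 0.097 ± 0.073 (limma, adjusted p = 0.549), and it was 0.015 without JEKO BR array 2 and 0.18 without JEKO BR array 1. The constitutive subunits lay close together in this line. PSMB5 scored 2.25 and 2.19 in JEKO BR and 2.25 and 2.22 in JEKO PT, PSMB6 2.18 and 2.25 against 2.21 and 2.20, and PSMB7 2.89 and 2.79 against 2.76 and 2.89. The groups of each overlapped. Their differences were -0.012, 0.010 and 0.018, and PSMB10, at 2.09 and 2.07 in JEKO BR and 2.12 and 2.05 in JEKO PT, differed by -0.0031. The 95% interval for PSMB6 in JEKO, -0.13 to 0.15, does not reach its HBL2 difference.

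The HBL2 change and the JEKO change differed for the same 3 genes that passed in HBL2. Over all genes this test called 8.71%, 2.95% higher and 5.76% lower. The HBL2 change minus the JEKO change was -0.61 ± 0.10 for PSMB9 (limma, adjusted p = 0.00134), -0.47 ± 0.094 for PSMB8 (adjusted p = 0.00480) and 0.34 ± 0.086 for PSMB6 (adjusted p = 0.0212). The PSMB8 and PSMB9 calls held under every alternative that gave them a value. The PSMB6 call was lost without HBL2 BR array 1 (0.34, adjusted p = 0.0511), JEKO BR array 1 (0.30, 0.100), JEKO BR array 2 (0.37, 0.0521), JEKO PT array 1 (0.33, 0.0880) or JEKO PT array 2 (0.34, 0.0689). The difference between the lines was 0.085 for PSMB5, 0.16 for PSMB7 (adjusted p = 0.322) and 0.017 for PSMB10, none of which passed.

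**Figure D2:**
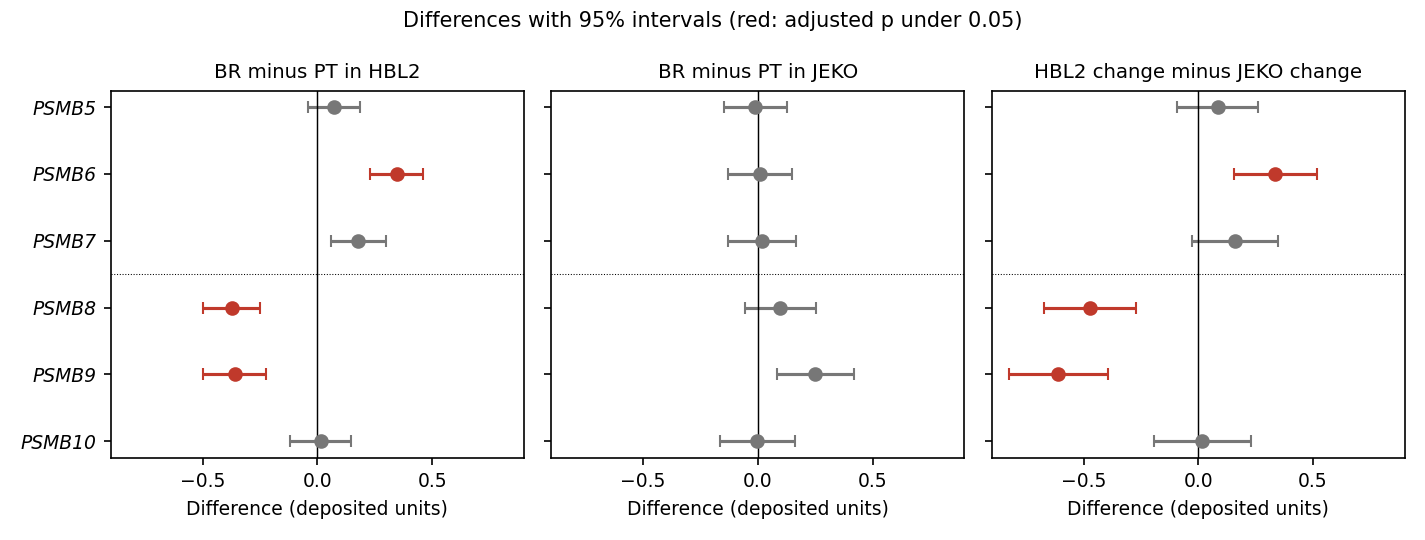
Differences in deposited units (horizontal axis) with 95% intervals for the 6 genes (rows, constitutive above the dotted line), for BR minus PT in HBL2, BR minus PT in JEKO and the first of these minus the second, with calls in red. PSMB6 lies at 0.35 and PSMB8 and PSMB9 at -0.37 and -0.36 in HBL2, while PSMB9 lies at 0.25 in JEKO without passing.

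The lines also differed from each other, and differently in the 2 states. Between the PT cells, HBL2 minus JEKO was 0.50 ± 0.072 for PSMB9 (limma, adjusted p = 1.06e-04) and 0.26 ± 0.066 for PSMB8 (adjusted p = 0.00948), where 23.1% of all genes were called, 13.9% higher and 9.25% lower. The PSMB8 call was lost without JEKO PT array 2 (0.24, adjusted p = 0.0861). The other 4 members did not pass, with PSMB5 at 0.15 (adjusted p = 0.0722) and PSMB6 at -0.13 (adjusted p = 0.159). PSMB5 passed under 4 of 18 alternatives, with the 75th percentile filter, array weights, percentile ranks or normal scores.

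Between the BR cells, HBL2 minus JEKO was 0.24 ± 0.059 for PSMB5 (limma, adjusted p = 0.00607), 0.21 ± 0.061 for PSMB6 (adjusted p = 0.0152) and -0.21 ± 0.066 for PSMB8 (adjusted p = 0.02497), where 28.1% of all genes were called, 14.0% higher and 14.1% lower. For PSMB9 it was -0.11 ± 0.072 (adjusted p = 0.301). Each of the 3 calls rested on single arrays. PSMB5 lost its call without JEKO BR array 2 (0.21, adjusted p = 0.0869) and PSMB6 without JEKO BR array 1 (0.18, adjusted p = 0.144). PSMB8 lost it without JEKO BR array 2 (-0.13, adjusted p = 0.319) and without HBL2 BR array 1 (-0.22, 0.0510), 2 (-0.21, 0.0649) or 3 (-0.20, 0.0560).

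Across the 4 groups the group means of PSMB9 spanned 0.50, those of PSMB8 0.37, PSMB6 0.35, PSMB5 0.24, PSMB7 0.18 and PSMB10 0.059. PSMB6 was highest in HBL2 BR and lowest in HBL2 PT, with the JEKO groups between them and overlapping each other. PSMB7 had the same order, but only HBL2 BR stood apart from its neighbour. PSMB8 ran the other way, lowest in HBL2 BR and highest in HBL2 PT, with both JEKO groups between. PSMB9 was lowest in JEKO PT and highest in HBL2 PT, and its HBL2 BR and JEKO BR arrays overlapped. PSMB5 was separated by line, with both HBL2 groups above both JEKO groups. All 4 groups of PSMB10 overlapped their neighbours in the order. All 6 genes were among the brighter probe sets, with group means from the 88.2nd percentile of the array (PSMB8 in HBL2 BR) to the 99.2nd (PSMB7 in HBL2 BR).

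The balance of inducible to constitutive subunits was taken on each array as the mean score of PSMB8, PSMB9 and PSMB10 minus that of PSMB5, PSMB6 and PSMB7. Probe sets differ in brightness, so the value 0 has no meaning and only differences between groups are read. The balance was -0.75, -0.74 and -0.69 in HBL2 BR and -0.27, -0.33 and -0.26 in HBL2 PT. It was -0.51 and -0.42 in JEKO BR and -0.53 and -0.61 in JEKO PT. BR arrays lay below PT arrays in HBL2 and above them in JEKO, without overlap in either line, and no test was made of this score.

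The HBL2 BR mean was -0.73 ± 0.032 and the HBL2 PT mean -0.29 ± 0.038 (SD, n = 3 each), a difference of -0.44. Both parts moved in HBL2, with the inducible mean at 1.87 in BR and 2.11 in PT and the constitutive mean at 2.60 in BR and 2.40 in PT. The JEKO BR mean was -0.46 ± 0.063 and the JEKO PT mean -0.57 ± 0.058 (SD, n = 2 each), a difference of 0.11. It was 0.068 without JEKO PT array 2 and 0.064 without JEKO BR array 2. In JEKO the constitutive mean was 2.42 in both BR and PT, and the inducible mean was 1.96 in BR and 1.85 in PT.

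Taken pair by pair, the caspase-like site held the widest shift. PSMB9 minus PSMB6 differed by -0.71 between BR and PT in HBL2 and by 0.24 in JEKO, again without overlap in either line. PSMB8 minus PSMB5, the chymotrypsin-like pair, differed by -0.45 in HBL2 without overlap and by 0.11 in JEKO with overlap, where leaving out JEKO BR array 2 gave -0.0057. PSMB10 minus PSMB7, the trypsin-like pair, differed by -0.16 in HBL2 and -0.022 in JEKO, with overlap in both lines. The HBL2 value was -0.084 without HBL2 PT array 1, and the JEKO value ran from -0.12 to 0.074 when single arrays were left out.

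**Figure D3:**
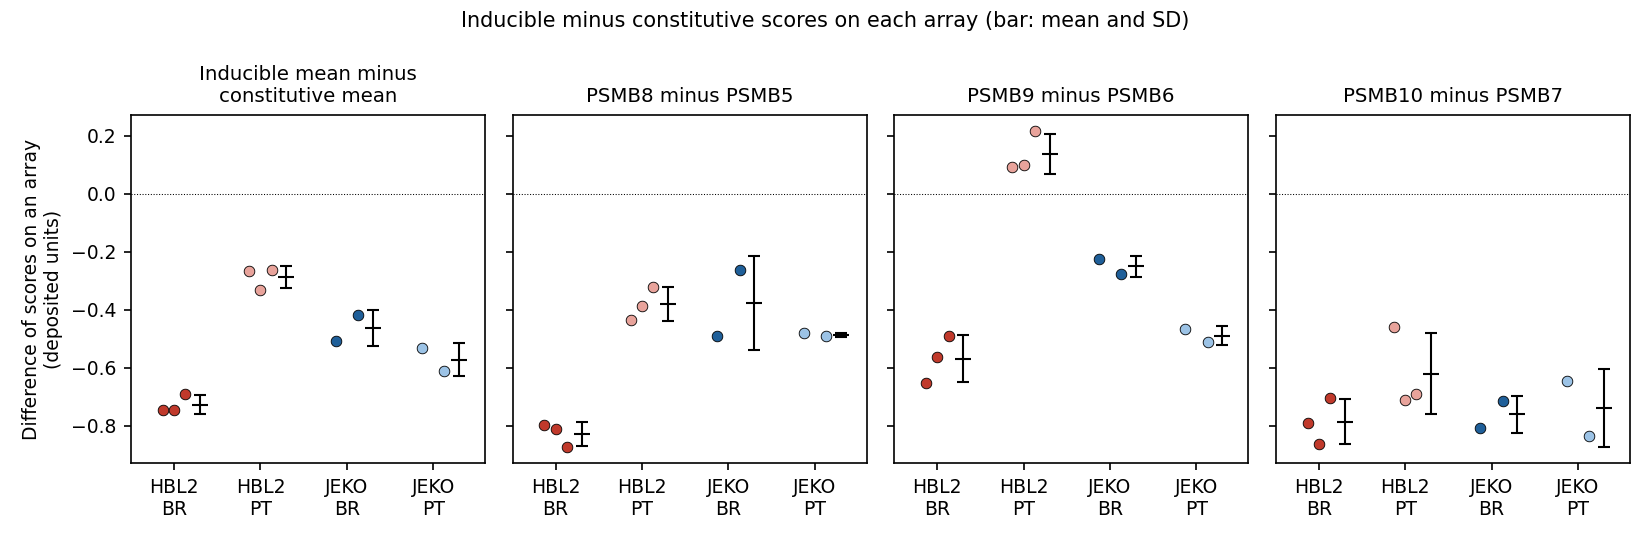
Inducible minus constitutive score on each array (vertical axis, deposited units), for the mean of the 3 genes of each kind and for each pair, with points for arrays and a bar for the mean and SD. HBL2 BR arrays lie lowest in the mean balance and in PSMB8 minus PSMB5, and in PSMB9 minus PSMB6 the HBL2 PT arrays lie highest.

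Marker calls are read beside those over all genes, of which 4.91% rose and 6.86% fell in HBL2, and 2.56% rose and 1.72% fell in JEKO. The plasma cell markers were SDC1, PRDM1, IRF4 and XBP1. In HBL2, 4 of 4 rose in BR cells, XBP1 with a call that was lost under 14 of 20 alternatives, with a summed score of 6.95 to 7.26 in BR and 5.46 to 5.81 in PT. In JEKO 1 of 4 (SDC1) rose, with a summed score of 5.83 to 6.003 in BR and 4.77 to 4.78 in PT. Of the 8 B cell markers, CD79A (-0.35) and CD79B (-0.25) fell in HBL2 and CD22 (0.35) rose in JEKO, with summed scores of 14.7 to 15.7 in BR and 16.0 to 16.9 in PT for HBL2, and of 17.3 to 17.8 in BR and 17.7 to 18.0 in PT for JEKO. Of 3 myeloid markers tested, LYZ fell in HBL2 (-0.59), and the summed score of the 4 on the array was 1.74 to 1.96 in HBL2 BR and 2.43 to 3.02 in HBL2 PT, and 1.79 to 2.09 in JEKO BR and 1.62 to 2.18 in JEKO PT. The 7 T and NK cell markers summed to 3.42 to 3.52 in HBL2 BR and 3.59 to 3.76 in HBL2 PT, and to 3.59 to 4.01 in JEKO BR and 3.73 to 3.80 in JEKO PT. Single arrays decided some of these calls. Leaving out 1 HBL2 array could end the HBL2 calls of SDC1, XBP1 and CD79B, and leaving out 1 JEKO array the JEKO calls of SDC1 and CD22. None of these markers was at 0, no stromal, epithelial or erythroid marker passed in either line, and their part in the changes of the proteasome genes was not tested.

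The other subunits of the 20S core, which have no cutting site, leaned upward in HBL2 BR cells, but few passed. Of 10 tested, 1 rose (PSMA4) and none fell, where 4.91% of all genes rose and 6.86% fell. All 10 had a difference above 0, with a median of 0.15 beside -0.00099 over all genes. PSMA4, an alpha ring subunit, scored 3.15, 3.15 and 3.16 in HBL2 BR and 2.75, 2.87 and 2.84 in HBL2 PT. Its BR arrays were nearly equal and all above the PT arrays (0.33 ± 0.067, limma, adjusted p = 0.00299), and the call was lost on percentile ranks. In JEKO none of the 10 passed, where 4.28% of all genes did. There 6 had a difference above 0 and the median was 0.010 beside 0.012 over all genes. PSMA8, a testis subunit, did not pass in either line.

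Among 9 proteasome activators and assembly factors, PSMG1, an assembly chaperone, rose in HBL2 (0.22 ± 0.060, limma, adjusted p = 0.0263) and none fell, with a median of 0.023. Over all genes 4.91% rose and 6.86% fell in that comparison. The PSMG1 call was lost under 5 of 20 alternatives. PSME1, part of the interferon-inducible PA28 activator that docks on the core, did not pass in either line, at -0.16 in HBL2 and 0.21 in JEKO. Its change differed between the lines (-0.36, limma, adjusted p = 0.0408), as did those of PSMG4 (-0.34, adjusted p = 0.0299) and PSMG1 (0.35, adjusted p = 0.0289). Each of these 3 differences lost its call under several alternatives.

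Of 12 genes that supply and load MHC class I peptides, 2 fell in HBL2 and none rose, where 6.86% of all genes fell and 4.91% rose. The list itself was not tested. TAP1, a subunit of the peptide transporter, scored 1.33, 1.31 and 1.42 in HBL2 BR and 1.59, 1.64 and 1.65 in HBL2 PT. The BR arrays were all below the PT arrays (-0.27 ± 0.060, limma, adjusted p = 0.00577). In JEKO the TAP1 difference was -0.013 (limma, adjusted p = 0.960). The HBL2 change of TAP1 minus its JEKO change was -0.26 and did not pass (adjusted p = 0.104). B2M, the light chain of MHC class I, scored 3.40, 3.43 and 3.39 in HBL2 BR and 3.56, 3.78 and 3.95 in HBL2 PT. The PT arrays were higher and more spread (-0.35 ± 0.076, limma, adjusted p = 0.00500), and its call was lost under 3 of 20 alternatives, with -0.050 and adjusted p = 0.841 from the probe set left when _x_at and _s_at probe sets were dropped. The list had a median of -0.012 in HBL2, beside -0.00099 over all genes. In JEKO none passed, where 4.28% of all genes did, and the median was 0.11 beside 0.012 over all genes.

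Of 13 genes of interferon signalling and regulators of the inducible subunits, 5 fell in HBL2 and none rose. Over all genes 6.86% fell and 4.91% rose. In this list 1 of 13 had a difference above 0 and the median was -0.17. NLRC5, the transactivator of MHC class I genes, scored 1.04, 1.12 and 1.14 in HBL2 BR and 1.55, 1.48 and 1.85 in HBL2 PT. Its BR arrays were all below its PT arrays (-0.52 ± 0.085, limma, adjusted p = 5.07e-04). IRF7, an interferon-responsive transcription factor, scored 1.18, 1.34 and 1.26 in HBL2 BR and 1.82, 1.64 and 1.64 in HBL2 PT. It too was lower on every BR array (-0.44 ± 0.069, limma, adjusted p = 4.15e-04).

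IRF8, a transcription factor of B cells and myeloid cells, fell by 0.39 ± 0.066 (limma, adjusted p = 6.51e-04), IFNGR2, a chain of the interferon-gamma receptor, by 0.30 ± 0.066 (adjusted p = 0.00561), and IRF9, part of the type I interferon response complex, by 0.22 ± 0.059 (adjusted p = 0.0215). The IRF9 call was lost without HBL2 BR array 1 (-0.21), HBL2 BR array 2 (-0.22) or HBL2 PT array 2 (-0.20) and with normal scores (adjusted p = 0.0503), and the other 4 held under every alternative. IRF1, the classical activator of the inducible subunits, was at -0.024 and did not pass (adjusted p = 0.858).

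In JEKO 1 of the 13 rose and none fell, where 2.56% of all genes rose and 1.72% fell. A difference above 0 was seen for 10 of the 13, and the median was 0.071. The gene that rose was IRF7, which scored 1.65 and 1.71 in JEKO BR and 1.29 and 1.45 in JEKO PT. Both BR arrays were higher (0.31 ± 0.085, limma, adjusted p = 0.0477), and the call held under 5 of 19 alternatives. NLRC5 was at 0.27 and did not pass (adjusted p = 0.182). The HBL2 change minus the JEKO change was -0.79 for NLRC5 (limma, adjusted p = 0.00146) and -0.75 for IRF7 (adjusted p = 4.19e-04). They were the only calls on the list in that comparison, where 5.76% of all genes were called lower.

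Among 5 regulators of the constitutive subunits 1 fell in HBL2, where 6.86% of all genes did. It was NFE2L2, a regulator of the antioxidant response (-0.26 ± 0.063, limma, adjusted p = 0.0108). The call was lost without HBL2 BR array 3 (-0.21) or HBL2 PT array 2 (-0.23) and with the median over probe sets (-0.19, adjusted p = 0.197). NFE2L1, which drives proteasome genes when the proteasome is inhibited, was at -0.021 in HBL2 and 0.16 in JEKO and passed in neither.

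**Figure D4:**
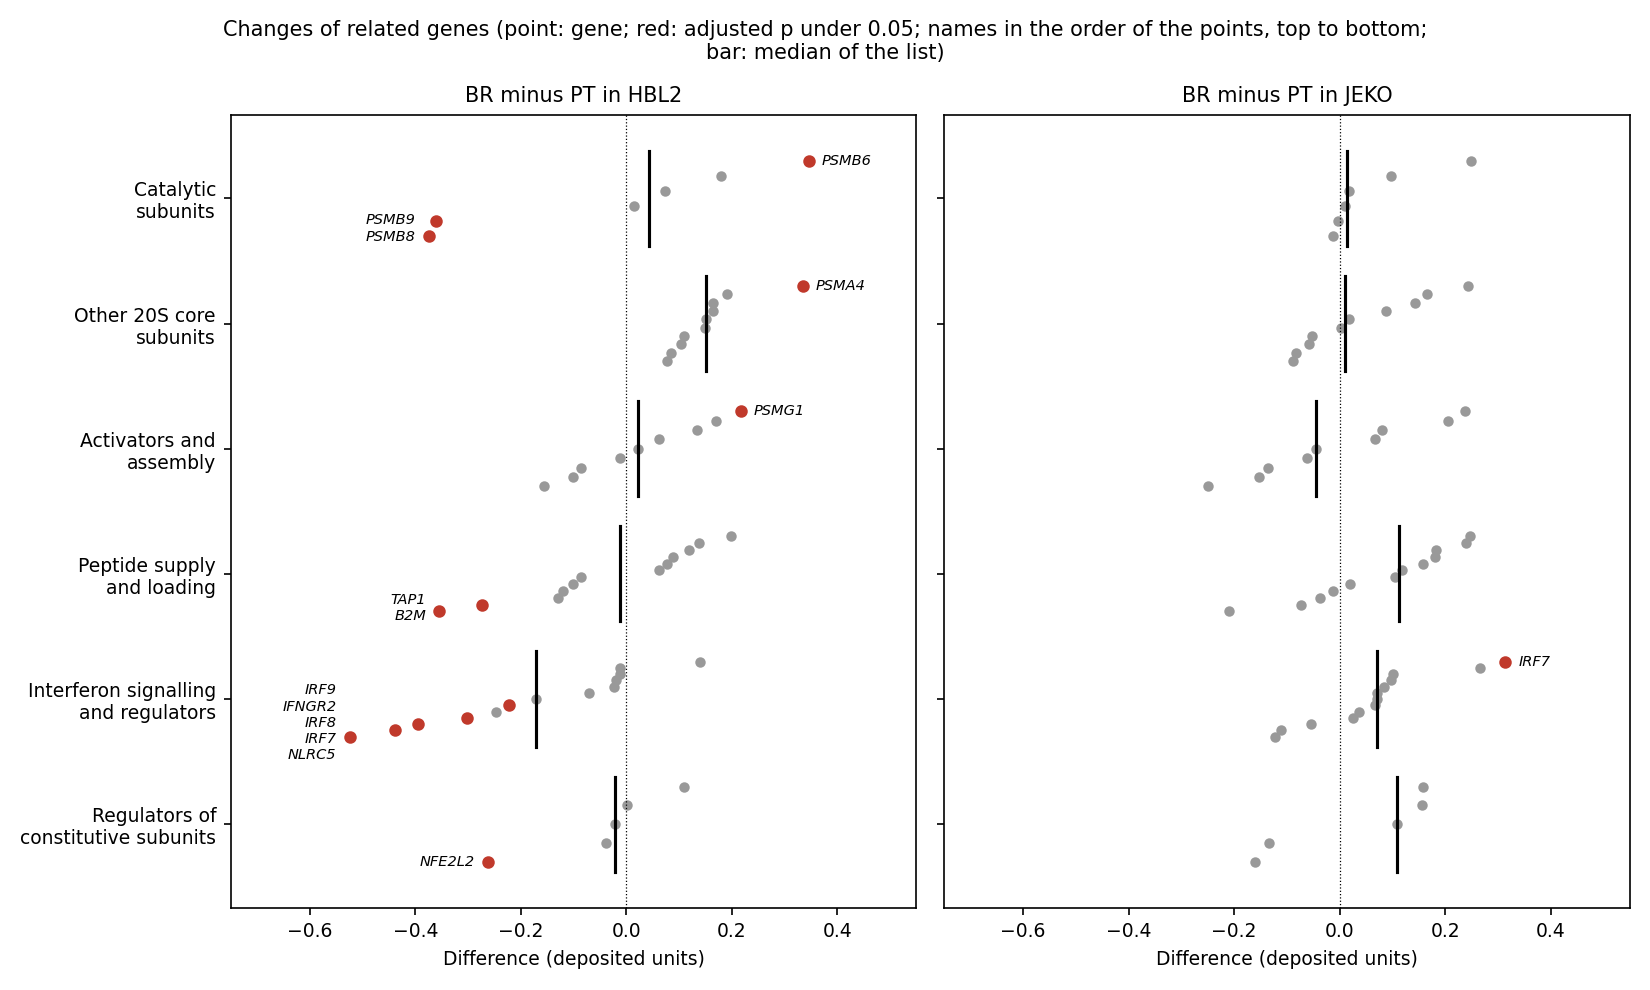
Differences between BR and PT (horizontal axis, deposited units) in HBL2 and in JEKO for the 6 catalytic subunits and 5 lists of related genes (rows), with a point for each gene, calls in red and named, and a bar at the median. In HBL2 the 10 other core subunits all lie above 0 and the interferon list has its median at -0.17.

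PSMB8 and PSMB9 lie with TAP1 in the MHC class II region of chromosome 6, so the genes beside each member were also set out, 4 protein-coding genes on each side in the order of GRCh38.p14. Around PSMB9, 5 of 8 neighbours fell in HBL2, where 6.86% of all genes did. None passed in JEKO, where 4.28% of all genes did. PSMB8, itself a member already called, and TAP1 were 2 of the 5. The others were HLA-DMB and HLA-DMA, which encode the molecule that loads peptides on MHC class II, and HLA-DOA, which encodes a chain of its inhibitor. HLA-DMB scored 1.29, 1.37 and 1.54 in HBL2 BR and 1.92, 1.93 and 2.10 in HBL2 PT. Its BR arrays were all lower (-0.58 ± 0.072, limma, adjusted p = 4.01e-05). The HLA-DMA difference was -0.48 ± 0.092 (adjusted p = 0.00223) and the HLA-DOA difference -0.51 ± 0.080 (adjusted p = 3.96e-04). TAP2 (-0.13), HLA-DOB (-0.18) and BRD2 (0.040) did not pass. Probe sets for HLA genes can pick up related HLA transcripts, so these values are uncertain as measures of single genes.

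Around PSMB7 on chromosome 9, 4 of 8 neighbours rose in HBL2, where 4.91% of all genes did. CRB2 (-0.19), DENND1A (0.12), ADGRD2 (0.21) and NR5A1 (0.086) did not pass. Of these, CRB2, ADGRD2 and NR5A1 scored near or below the median of the array. OLFML2A, which encodes a secreted protein, scored 2.02, 2.16 and 1.75 in HBL2 BR and 0.46, 0.39 and 0.57 in HBL2 PT. LHX2, which encodes a LIM homeobox transcription factor, scored 2.005, 1.91 and 1.98 in HBL2 BR and 0.58, 0.90 and 0.96 in HBL2 PT. For both genes every HBL2 BR array was far above every HBL2 PT array, and in JEKO OLFML2A lay between them, at 1.42 and 1.32 in BR and 1.32 and 1.46 in PT. The differences were 1.504 ± 0.089 for OLFML2A (limma, adjusted p = 1.60e-08) and 1.15 ± 0.091 for LHX2 (adjusted p = 3.63e-07).

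NEK6, a mitotic kinase gene next to PSMB7, rose by 0.43 (limma, adjusted p = 1.59e-04) and NR6A1, a nuclear receptor gene, by 0.33 (adjusted p = 0.00553). The NEK6 call was lost, at 0.10, when _x_at and _s_at probe sets were dropped, and that of NR6A1 on percentile ranks. In JEKO LHX2 rose (0.50, adjusted p = 0.0184), a call lost without either JEKO BR array or without JEKO PT array 1, and no other PSMB7 neighbour passed. Around PSMB5 none of 6 tested passed in HBL2, where 11.8% of all genes did, so a count this small says little. PRMT5, an arginine methyltransferase gene, rose in JEKO (0.27, limma, adjusted p = 0.0333), where 2.56% of all genes rose. None of 4 passed around PSMB6 in either line, where 11.8% of all genes passed in HBL2 and 4.28% in JEKO. Around PSMB10, DPEP2, a dipeptidase gene, fell in HBL2 (-0.49, limma, adjusted p = 0.0454), 1 of 6 tested, where 6.86% of all genes fell. Leaving out any 1 HBL2 array but PT array 2 ended the DPEP2 call, and leaving out any 1 JEKO array ended the PRMT5 call. The neighbours were listed after values of the members had been seen, and copy number was not analysed here.

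**Figure D5:**
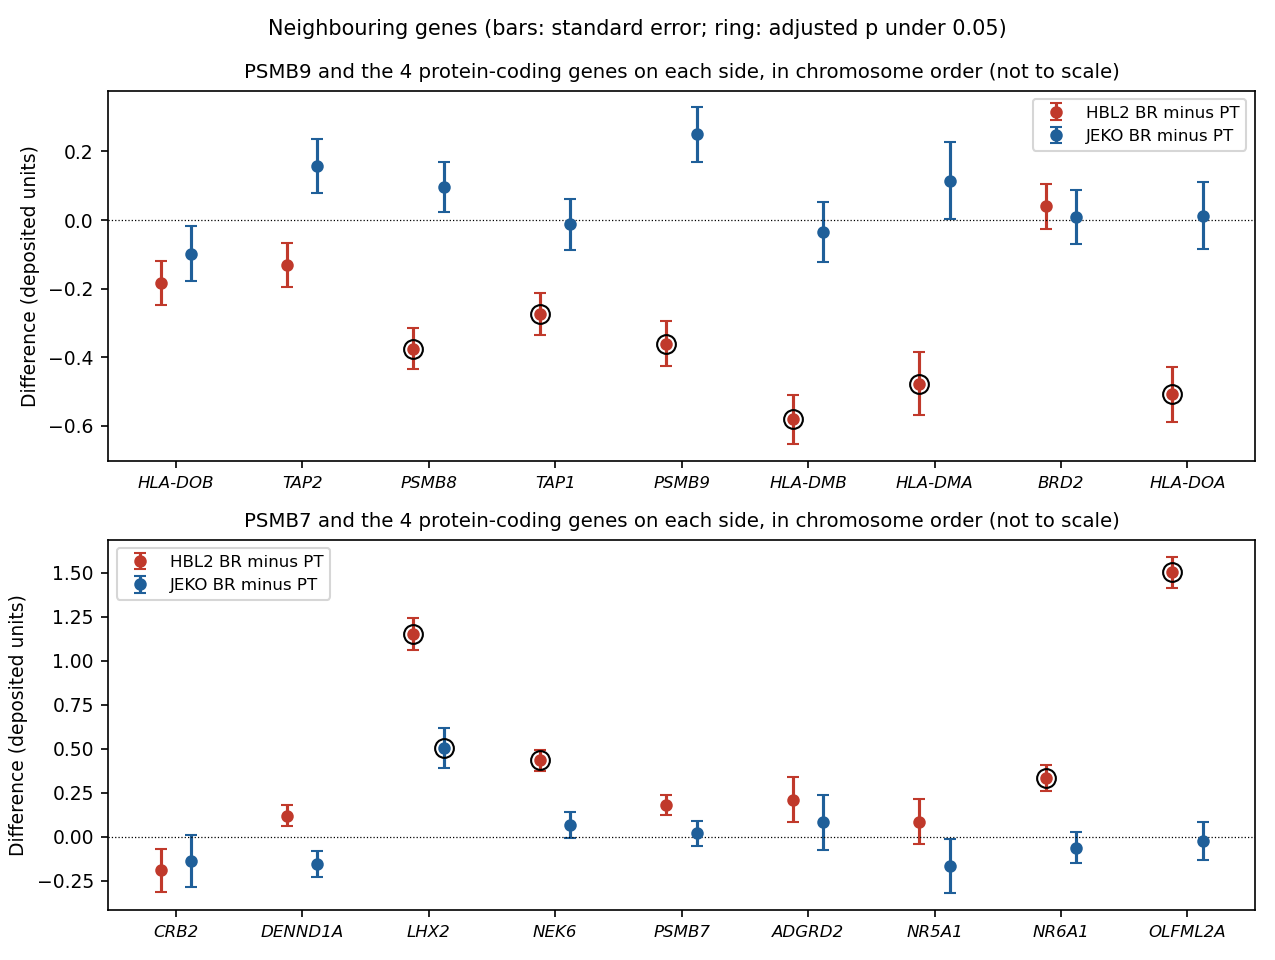
Differences between BR and PT (vertical axis, deposited units, bars for the standard error) in HBL2 and JEKO for the genes around PSMB9 and around PSMB7, in chromosome order and not to scale, with rings around calls. Around PSMB9 the ringed HBL2 points lie between -0.58 and -0.27, and around PSMB7 they lie between 0.33 and 1.504.

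The genes whose centred scores over the 10 arrays lay closest to each called member were found by the root mean square difference between the 2 patterns. For PSMB9, whose own scores varied by a root mean square of 0.20, they were ISG15 (0.046), an interferon-induced ubiquitin-like protein, GRN (0.048), the progranulin gene, and LINC03040 (0.054), a noncoding RNA. ISG15 scored 1.62, 1.66 and 1.78 in HBL2 BR and 2.06, 1.99 and 2.05 in HBL2 PT, and 1.86 and 1.75 in JEKO BR and 1.61 and 1.56 in JEKO PT. Like PSMB9, it was lower on all BR arrays of HBL2 and higher on both of JEKO. It was picked for its likeness to PSMB9 on these arrays, so the shared order is part of that choice. For PSMB8 (0.15) they were RCAN3 (0.039), a calcineurin regulator gene, HLA-J (0.041), an HLA pseudogene, and MCCC1 (0.047), an enzyme gene of leucine breakdown. For PSMB6 (0.14) they were SLC2A1-DT (0.041), a noncoding RNA, SPATA7 (0.044) and MRPL4 (0.045), a mitochondrial ribosome protein gene. PSMB9 stood 526th in the list for PSMB8 and PSMB8 stood 202nd in that for PSMB9, at a distance of 0.12. The 10 arrays share 4 groups, so these likenesses are descriptions without a p-value.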

How the data were processed

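Total RNA from 2 cell lines was hybridised to 10 Affymetrix arrays after biotin labelling, per the labels' protocols. The authors deposited 1 score per probe set and array for 54675 probe sets. The submitters' processing notes name MAS5 with no version, and any later step is not given in the sources used here. Sorted, the deposited scores were identical on every array (largest difference 0). There were 0 other columns of values.

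Of the probe sets, 62 were controls, and the platform annotation gave 41091 a single symbol, 1801 several and 11721 none. Single-symbol probe sets were kept (27577) if 2 or more arrays had them at or above the 50th percentile of that array, and the highest mean represented each of 14529 genes. Scores were fitted without transformation in limma 3.58.1 (R 4.3.3) using eBayes with trend, with 4 group means in 1 fit, 6 residual degrees of freedom and a mean prior of 9.89. Sample titles gave the groups and replicate numbers. Tests were two-sided, with Benjamini-Hochberg adjustment over all genes and calls at an adjusted p under 0.05. The balance of subunits was given no test. The fit was tested on simulated data.

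Named genes were the 6 members, up to 4 called members of each related list in each line with the largest changes, the 3 nearest patterns of each called member and, where a count needed it, other list members. The members and lists were chosen with earlier results of these data known, and the neighbours of the members after their values were seen. Some genes of the related lists and marker lists are not reported here. Promoter windows and gene order came from RefSeq tables of GRCh38.p14, used with Python 3.11.15 and pandas 2.3.3. Alternatives were percentile ranks, normal scores, the median over probe sets, dropping _x_at and _s_at probe sets, array weights, no trend, a stricter (75th percentile) or absent filter, the replicate number as a block, fits of single lines and leaving out each array.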

Additional observations from a re-analysis of the deposited data

Results flagged for a closer look

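The change between BR and PT cells differed between the lines by limma's test of the difference itself for 3 of the 6 catalytic subunits. The HBL2 change minus the JEKO change, with its adjusted p in brackets, was PSMB6 0.34 (0.0212), PSMB8 -0.47 (0.00480) and PSMB9 -0.61 (0.00134).

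The same difference was called for other genes named above. Among proteasome factors it was PSMA4 0.42 (0.0210), PSMG1 0.35 (0.0289), PSMG4 -0.34 (0.0299) and PSME1 -0.36 (0.0408). Among genes of peptide loading and interferon signalling it was B2M -0.54 (0.0103), NLRC5 -0.79 (0.00146) and IRF7 -0.75 (4.19e-04). Among the genes nearest in pattern to PSMB8 or PSMB9 it was ISG15 -0.56 (0.00172), GRN -0.47 (0.00958), LINC03040 -0.55 (0.00329), RCAN3 -0.46 (0.00810), HLA-J -0.52 (0.00172) and MCCC1 -0.43 (0.0118), and those genes were picked for that likeness. Among genomic neighbours it was HLA-DMA -0.59 (0.0172), HLA-DMB -0.55 (0.00662), HLA-DOA -0.52 (0.0160), LHX2 0.65 (0.00993), NEK6 0.37 (0.0262), NR6A1 0.40 (0.0420), OLFML2A 1.53 (7.14e-06) and DPEP2 -0.92 (0.0242). For the B cell marker CD22 it was -0.51 (0.0139). Alternatives that kept all arrays also ended some of these calls. The limma adjusted p of the difference reached 0.881 for B2M, 0.932 for NEK6, 0.966 for LHX2 and 0.993 for PSMG4. Leaving out 1 JEKO array ended the call of the difference for PSMB6, PSMA4, PSMG1, PSMG4, PSME1, B2M, GRN, MCCC1, HLA-DMA, HLA-DMB, HLA-DOA, LHX2, NEK6, NR6A1, DPEP2 and CD22, each for at least 1 choice of array.

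The balance of inducible to constitutive subunits was lower on every BR array than on every PT array in HBL2 and higher on every BR array in JEKO, with a difference between the 2 changes of -0.55. The score of PSMB9 minus PSMB6 moved in opposite ways in the same manner, with a difference of -0.95. These 2 differences between the lines were not tested.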

How the results depend on the processing

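Of 565 values of single members under the alternatives, 524 kept their direction and their side of the threshold, 12 lost and 13 gained a call, and 16 changed sign without a call in either fit. Those 16 lay between -0.045 and 0.029 and belonged to PSMB5, PSMB6, PSMB7 and PSMB10, none with a call in that comparison, and no called value changed sign. In HBL2, the calls of PSMB6 and PSMB9 held under all 20 alternatives and that of PSMB8 under the 19 that gave it a value, since dropping _x_at and _s_at probe sets removed it. Members called higher in HBL2 numbered 2 with the 75th percentile filter, array weights or no _x_at or _s_at probe sets, and 1 to 2 when single arrays were left out. Members called higher in JEKO numbered 1 with array weights, each line alone or percentile ranks, and 0 to 1 without single arrays. Without _x_at and _s_at probe sets, 1 member was called lower in HBL2, 1 lower in the difference between the lines, 1 higher between the PT cells and 0 lower between the BR cells, because PSMB8 had no value. With percentile ranks, 1 was called lower between the PT cells. Leaving out single arrays gave 0 to 1 called higher in the difference between the lines, 1 to 2 higher between the PT cells, and 1 to 2 higher and 0 to 1 lower between the BR cells.

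The balance difference was -0.46 to -0.43 in HBL2 and 0.064 to 0.15 in JEKO without single arrays, and on percentile ranks, which have another unit, -4.50 and 1.91 percentile points. The difference for PSMB8 minus PSMB5 in JEKO was 0.22 without JEKO BR array 1 and turned to -0.0057 without JEKO BR array 2. The difference between the lines for LHX2 turned to -1.70 percentile points on percentile ranks, beside 0.65 in deposited units, and the cause was not tested. The count over all genes moved by over 1.5 times with array weights, to 2684 in HBL2 (beside 1711), 1032 in JEKO (beside 622) and 1948 in the difference (beside 1266), and to 389 in JEKO with no trend. Without single arrays it ran from 1114 to 1647 in HBL2, 114 to 945 in JEKO, 661 to 1479 in the difference, 1984 to 3615 between the PT cells (beside 3361) and 2430 to 4611 between the BR cells (beside 4083). With the replicate number as a block, the PSMB6 difference in HBL2 kept its size of 0.35 (limma, adjusted p = 0.00125) and no member call changed, while the JEKO calls of IRF7 (0.31, adjusted p = 0.0638), PRMT5 and CD22 and the HBL2 call of XBP1 were lost. Deviations of same-numbered BR and PT arrays from their group means correlated at 0.017, 0.14 and 0.0075 in HBL2. Arrays of different number gave -0.20 to 0.15 there. In JEKO the values were 0.078 and -0.078, mirror images because each group has 2 arrays. These values cannot decide whether the arrays are pairs, and the main fit did not treat them as pairs.

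The scores carry no detection calls or depth, messenger RNA was measured and not protein or proteasome activity, and each line gives 1 resistant population. With 1 JEKO array left out, the lone remaining array of its group is taken to have the spread of the other groups.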
